A study of Mus musculus with 8 samples.

Results

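Testis RNA of castaneus house mice was compared with testis RNA of domesticus house mice, on 2 Affymetrix expression arrays of each. These 4 arrays were chosen by the subspecies name in their titles, out of 8 in the series, and all 12422 probe sets were considered. Each probe set pools the signal of several short probes against 1 transcript. The other 4 arrays hold testis RNA labelled musculus and ssp, 2 of each, and ssp is used here as a group name that no label explains. No treatment is labelled, and nothing here gives the strain, age, genotype or number of mice behind an RNA sample. The labels call the arrays of a group technical replicates, so every p-value measures the spread between arrays of RNA samples and not the spread between mice.

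Castaneus and domesticus are subspecies of the house mouse, which can interbreed. Most RNA of the adult testis comes from germ cells that pass through meiosis and then, as haploid spermatids, repack their chromatin with protamines and build the sperm tail. These cells use their own forms of many metabolic enzymes, while Sertoli cells nurse them and Leydig cells make androgen. RNA was taken from whole tissue, where fewer cells of a type and less RNA per cell cannot be told apart.

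The labelled tissue was checked against its defining transcripts. The sperm chromatin genes Tnp2, Prm1 and Tnp1, the sperm tail gene Odf1 and the germ cell lactate dehydrogenase Ldhc stood at percentile 99.8 or above on all 4 arrays. Akap4, Pgk2, the Sertoli cell product Clu and the Leydig cell enzyme Cyp17a1 stood between percentiles 94.1 and 98.8. The probe sets of Prm2, Insl3 and Amh were dim, at percentiles 14.9 to 57.2. Values are intensities as deposited, with array medians of 151.2 to 182.55 over the 8 arrays. The 2 castaneus arrays correlated at r = 0.911 over the tested probe sets and the 2 domesticus arrays at r = 0.916, against 0.865 to 0.895 between arrays of the 2 groups.

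Most testis transcripts lay close together in the 2 groups. Of the 8874 probe sets bright enough to test, 85.35% differed by less than 2-fold, and the median difference was 0.017 on the log2 scale, castaneus minus domesticus. Intensities below 18.7 were raised to that floor, and testing was limited to probe sets at or above percentile 40 of the array on at least 2 of the 8. As 2 is also the number of arrays in a group, a probe set could enter the test through 1 group alone. Its call was then not independent of the filter. A probe set was called where limma's Benjamini-Hochberg adjusted p was under 0.05 and the log2 difference was at least 1 in size. This gave 60 calls, or 0.676% of those tested. Of these, 19 were higher in castaneus (0.214%) and 41 were lower in castaneus, that is higher in domesticus (0.462%).

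The 60 called probe sets differed by 3.27-fold to 30.9-fold, with a median of 6.02-fold and standard errors of 0.22 to 0.55 on the log2 scale. In all 60 the 2 castaneus arrays lay wholly on one side of the 2 domesticus arrays. The calls were made from these same values, so this adds no support. Over all named genes tested, 22.1% had both castaneus arrays above both domesticus arrays and 21.0% had them below. The brighter group had a median intensity of 767 over the calls and the dimmer group 102. The calls carried 1 gene symbol in 54 cases, which name 51 of the 6581 named genes tested (0.775%). By size alone, with no test, 1300 probe sets differed at least 2-fold between the group means, 586 higher in castaneus and 714 higher in domesticus. Of them 1080 had groups that did not overlap, which choosing by size favours. The 2 castaneus arrays themselves lay within 2-fold in 82.8% of tested probe sets, and the 2 domesticus arrays in 84.3%. Between single arrays of the 2 groups this share was 75.9% to 81.5%.

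The calls rest on a spread pooled over all 8 arrays. With limma on only the 4 castaneus and domesticus arrays, 0 probe sets were called although 994 had an unadjusted p under 0.05, and leaving out castaneus replicate 1, castaneus replicate 2, domesticus replicate 1 or domesticus replicate 2 likewise left 0 calls, with 725 to 931 at that unadjusted threshold. Leaving out either musculus array left 4 calls, Tnnc1, Ces1c, Cck and Zfp62, and leaving out either ssp array left 18. Without a filter on dim probe sets 4 calls were made. No named call changed direction under an alternative that gave it a value, a filter at percentile 60 giving none for 11 of the 54. Because the groups of every call lay apart, leaving out 1 array could not reverse it, so the unchanged direction adds no support.

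**Figure D1:**
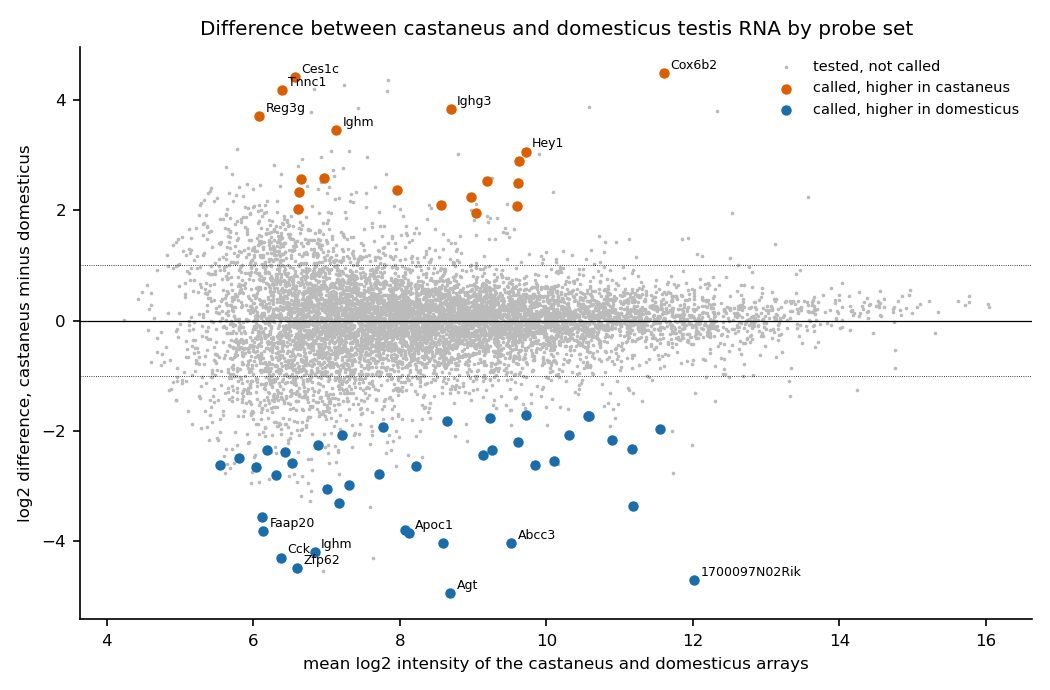
Each point is 1 of the 8874 tested probe sets, with the mean log2 intensity of the castaneus and domesticus groups on the horizontal axis and the log2 difference, castaneus minus domesticus, on the vertical axis. Orange points are the 19 probe sets called higher in castaneus, blue points the 41 called higher in domesticus, grey points were not called, dotted lines mark a 2-fold difference, and the names are those of the largest differences with the floor applied, up to Cox6b2 at 4.50 and down to Agt at -4.95.

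With the floor at 18.7, the largest difference in favour of castaneus was in Cox6b2, the testis form of a subunit of cytochrome c oxidase, on chromosome 7. Its probe set 97351_i_at had intensities of 14774 and 14726 on the castaneus arrays, against 722 and 592.3 on the domesticus arrays. The 22.6-fold difference had a log2 value of 4.50 ± 0.38 (SE) and an adjusted p of 0.0212. The musculus mean of 12666 and the ssp mean of 8739 were both nearer castaneus. Another probe set of this gene, 97352_f_at, had 28831 and 29232 in castaneus and 20533 and 19538 in domesticus, a log2 difference of 0.54 (adjusted p = 0.476), and 160813_r_at differed by -0.24. So 1 of the 3 probe sets of Cox6b2 was called, and 1 had the opposite sign.

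Of the other genes of energy metabolism, Echs1, a mitochondrial enzyme of fatty acid oxidation, was lower in castaneus. It had 38 and 52.3 in castaneus, against 270.7 and 506.9 in domesticus, an 8.31-fold difference (log2 -3.05 ± 0.40, adjusted p = 0.0419). The musculus mean was 119 and the ssp mean 305. Glul, which makes glutamine from glutamate, was 4.81-fold lower in castaneus by 1 probe set, while its second differed by -0.34 and was not called. Over the list of cytochrome c oxidase and respiratory chain genes, 1 of 67 tested was called, Cox6b2 itself, beside 0.775% of all named genes tested. The list's median was 0.11 beside 0.021 for all named genes. In every list a gene counts as called by any of its probe sets, while medians, signs and overlaps use its brightest one, which for Cox6b2 is 97352_f_at and was not called. Without domesticus replicate 1 this median was -0.05, and without domesticus replicate 2 it was 0.17. Ndufc1, a subunit of complex I, had 1318 and 1277 in castaneus and 7727 and 10206 in domesticus but missed the threshold (log2 -2.77, adjusted p = 0.0622).

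Promoters are printed for 4 of the genes with the largest differences, Cox6b2 and Tnnc1 from those higher in castaneus and Agt and Cck from those lower in castaneus, so that a reader has the sequence upstream of each. They are the RefSeq entries of build GRCm38.p6, a reference mouse genome and not sequence of the mice studied, from 250 bases before to 50 after each gene's start. Capitals mark 3 motifs, searched on both strands: the TATA box TATAAA, the CCAAT box CCAAT and the E-box CACGTG. Among all 32851 promoters of this length, 13.6% hold TATAAA, 37.4% hold CCAAT and 7.15% hold CACGTG. None of the 3 motifs overlaps another in these windows. Cox6b2 lies at chr7:4753045-4753344 on the minus strand and Tnnc1 at chr14:31208062-31208361 on the plus strand. The window of Agt is chr8:124569657-124569956 and that of Cck is chr9:121495645-121495944, both on the minus strand.
Cox6b2: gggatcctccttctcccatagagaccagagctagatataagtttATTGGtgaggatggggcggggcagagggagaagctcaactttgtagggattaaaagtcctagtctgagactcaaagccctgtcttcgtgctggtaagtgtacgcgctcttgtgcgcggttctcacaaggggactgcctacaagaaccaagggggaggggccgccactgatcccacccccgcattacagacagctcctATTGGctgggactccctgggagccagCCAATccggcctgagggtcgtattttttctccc
Tnnc1: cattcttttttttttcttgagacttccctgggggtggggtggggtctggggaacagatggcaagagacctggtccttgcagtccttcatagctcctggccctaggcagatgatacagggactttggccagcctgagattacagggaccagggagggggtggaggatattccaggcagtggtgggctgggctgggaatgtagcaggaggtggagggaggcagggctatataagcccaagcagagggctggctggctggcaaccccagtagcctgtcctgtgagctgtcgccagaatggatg
Agt: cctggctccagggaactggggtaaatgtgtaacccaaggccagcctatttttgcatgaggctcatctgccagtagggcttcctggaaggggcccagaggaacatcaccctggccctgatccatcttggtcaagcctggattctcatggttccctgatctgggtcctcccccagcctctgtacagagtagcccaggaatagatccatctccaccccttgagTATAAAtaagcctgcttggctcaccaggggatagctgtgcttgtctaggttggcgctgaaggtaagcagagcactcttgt
Cck: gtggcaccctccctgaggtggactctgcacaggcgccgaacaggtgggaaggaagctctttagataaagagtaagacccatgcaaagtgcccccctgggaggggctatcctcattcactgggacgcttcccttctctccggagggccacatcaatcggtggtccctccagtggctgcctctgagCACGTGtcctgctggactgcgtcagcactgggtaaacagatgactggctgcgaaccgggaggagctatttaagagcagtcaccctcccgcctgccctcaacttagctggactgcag
The Cox6b2 window held 3 matches to CCAAT and no match to the other motifs. The Agt window held 1 TATAAA and the Cck window 1 CACGTG, while the Tnnc1 window held none of these letters. A match is a description of the letters and not a site in use.

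The muscle genes Tnnc1 and Capn3 and the matrix gene Mfap5 were higher in castaneus. Tnnc1, the calcium-binding troponin of slow and cardiac muscle, had 340.2 and 376.9 in castaneus, against 20.7 and 7 in domesticus, of which the second array was at the floor. With that array raised to the floor the difference was at least 18.2-fold (log2 4.19 ± 0.25, adjusted p = 0.00563), and its log2 value was 4.89 without the floor. The musculus mean of 18.7 was at the floor with domesticus, and the ssp mean of 503 was above castaneus. Capn3, a calcium-dependent protease of skeletal muscle, had 2578 and 1796 in castaneus and 211.2 and 397.7 in domesticus, a 7.42-fold difference (log2 2.89 ± 0.37, adjusted p = 0.0419), with means of 420 in musculus and 1120 in ssp. Its 2 other probe sets differed by 1.89 and 2.80 in the same direction without being called. Mfap5, a microfibril protein of elastic fibres, had 288.6 and 323.7 in castaneus and 52 and 49.2 in domesticus (6.04-fold, log2 2.60 ± 0.37, adjusted p = 0.0477), with means of 114 in musculus and 178 in ssp. A second Mfap5 probe set differed by 1.98 with an adjusted p of 0.0622.

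Of 31 striated muscle genes tested, 1 was called, Tnnc1, beside 0.775% of all named genes tested. The list had a median of 0.18, which was 0.06 without domesticus replicate 2 and 0.10 without castaneus replicate 2, with 20 genes above 0 and 11 below, and 7 had both castaneus arrays above both domesticus arrays while 3 had them below, beside 22.1% and 21.0% of all named genes tested. Its summed intensity was 10936 and 12822 in castaneus and 10364 and 10012 in domesticus. Tnnt2, cardiac troponin T, had 346.1 and 481.6 in castaneus and 47.1 and 13.9 in domesticus (adjusted p = 0.0764), while Myh7, the slow myosin heavy chain, ran the other way, with 39.6 and 51.1 in castaneus and 175.8 and 157.6 in domesticus (adjusted p = 0.0502). Ckm, muscle creatine kinase, stood at 169.3 and 87 in castaneus and 21 and 47.4 in domesticus. The part of muscle cells in the Tnnc1 difference was not tested.

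**Figure D2:**
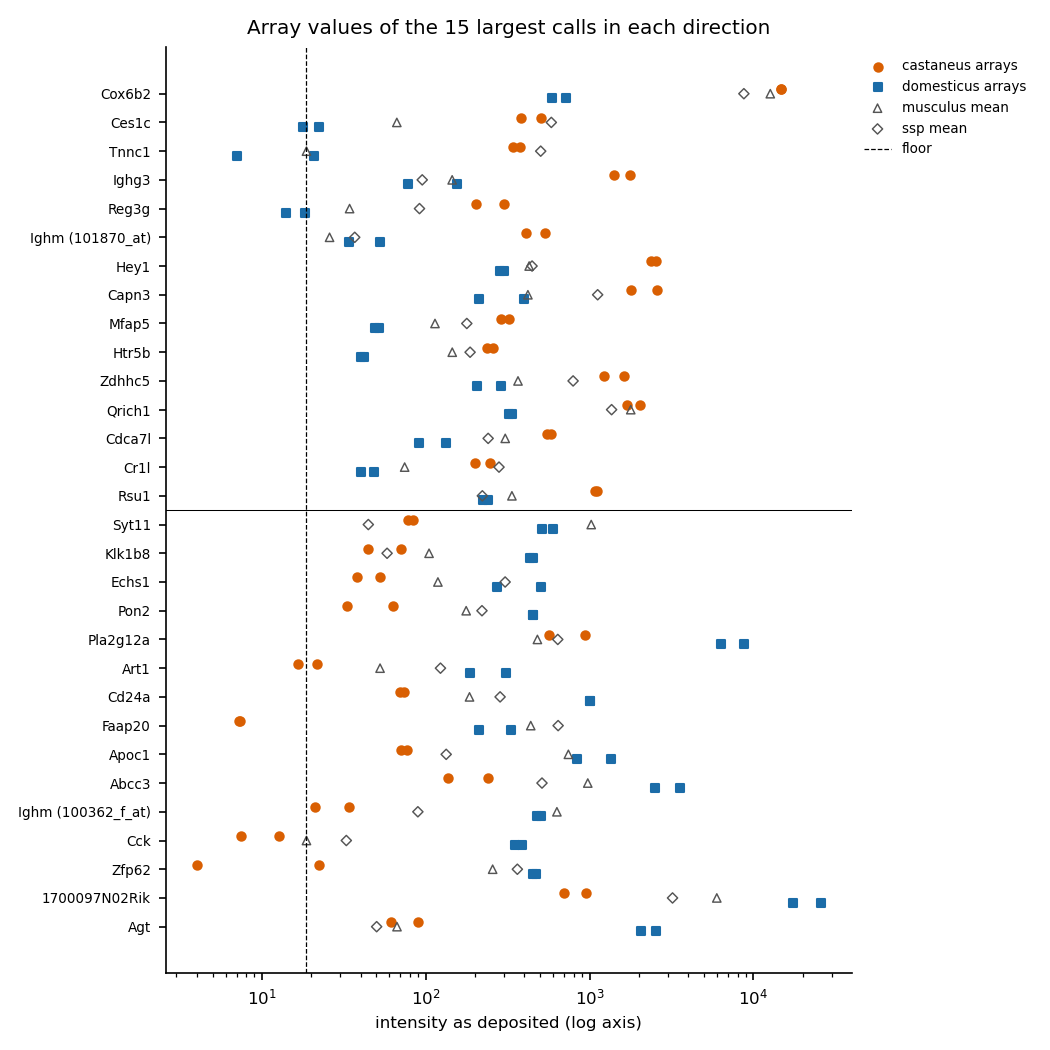
Deposited intensity on a log axis for the 15 largest named calls in each direction, with the 2 castaneus arrays as orange circles, the 2 domesticus arrays as blue squares and open symbols for the musculus and ssp means. The upper block holds the genes higher in castaneus and the lower block those higher in domesticus, no gene's castaneus and domesticus arrays overlap, and the dashed line is the floor at 18.7.

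Immunoglobulin probe sets differed in both directions. Ighg3, a heavy chain constant region gene on chromosome 12, had 1399 and 1771 in castaneus, against 77.4 and 155 in domesticus, by probe set 102721_at (14.4-fold, log2 3.85 ± 0.55, adjusted p = 0.0487), with means of 145 in musculus and 95.1 in ssp. Ighm, the heavy chain of IgM, had 406.9 and 534.9 in castaneus and 33.9 and 52.7 in domesticus by 101870_at (11.0-fold, log2 3.46 ± 0.37, adjusted p = 0.0304), with means of 25.9 in musculus and 36.8 in ssp. By 100362_f_at, however, Ighm had 21 and 33.8 in castaneus and 475.1 and 505.5 in domesticus (18.4-fold lower, log2 -4.20 ± 0.37, adjusted p = 0.0212), with means of 631 in musculus and 89.5 in ssp. Ighm by 100377_f_at was likewise 5.26-fold lower in castaneus. The 4 Ighm probe sets that were tested and not called differed by -2.30 to 0.74. For Ighg3, 102722_g_at differed by 4.38 (adjusted p = 0.0622), and 3 more probe sets differed by -2.61, -2.58 and -1.16. Immunoglobulin genes form a family of near-identical copies, and the platform's names for their probe sets are uncertain.

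Of the 13 tested genes of B and plasma cells, 2 were called, beside 0.775% of all named genes tested. Both had a probe set called higher in castaneus, and 1 of them, Ighm, also had probe sets called lower. The median was 0.47, with 10 above 0 and 3 below, and 0.14 without domesticus replicate 2. The summed intensity of the list was 10625 and 9535 in castaneus, against 2426 and 3091 in domesticus, and the groups did not overlap. Most of the castaneus sum came from Igkv6-23, a light chain variable gene, with 6679 and 5177 in castaneus and 181.5 and 877.4 in domesticus (log2 3.88, adjusted p = 0.0885). The called Ighg3 added 1399 and 1771 in castaneus, against 77.4 and 155 in domesticus. The gap in the sum thus rests largely on these 2 immunoglobulin genes, whose probe set names are uncertain, and not on the list as a whole. The defining B cell genes Ms4a1, Cd79b and Pax5 differed by 0.33, 0.47 and 0.26. Jchain, the joining chain of plasma cells, differed by 1.08 with groups that did not overlap (adjusted p = 0.219), while the precursor B cell genes Igll1 and Vpreb1 differed by -1.09 and -0.80. The part of B and plasma cells in these calls was not tested.

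Other genes of immunity and of the cell surface were split between the groups. Reg3g, a secreted antibacterial lectin, had 298.4 and 202.8 in castaneus, while both domesticus arrays, at 18.2 and 14.1, were at the floor, so the difference was at least 13.2-fold (log2 3.72 ± 0.47, adjusted p = 0.0392). The means were 34.3 in musculus and 91.6 in ssp. Cr1l, also called Crry, which protects cells from complement, had 200.1 and 245.7 in castaneus and 48.6 and 40 in domesticus by 101879_s_at. The difference was 5.03-fold (log2 2.33 ± 0.30, adjusted p = 0.0392), with means of 74.3 in musculus and 280 in ssp. Cd24a, a small glycoprotein anchored in the membrane of immature blood cells, ran the other way, with 69.4 and 73.9 in castaneus against 1008 and 1007 in domesticus (14.1-fold, log2 -3.81 ± 0.47, adjusted p = 0.0385). Its means were 185 in musculus and 284 in ssp. Serpinb6a, an intracellular protease inhibitor, was 4.26-fold higher in castaneus. It was the 1 serpin called of 16 tested, beside 0.775% of all named genes tested. None of the 23 macrophage and complement genes was called by limma, 3 had an unadjusted p under 0.05, beside 11.1% of all named genes tested, and the macrophage lysozyme Lyz2 stood at 59.4 and 15.7 in castaneus and 351.4 and 259.3 in domesticus (adjusted p = 0.0864).

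Several genes that act in the nucleus were called. Hey1, a transcriptional repressor switched on by Notch signalling, had 2360 and 2532 in castaneus, against 282.7 and 300.3 in domesticus. The difference was 8.39-fold (log2 3.07 ± 0.23, adjusted p = 0.0151), and the means of 428 in musculus and 445 in ssp were nearer domesticus. Of 18 Notch pathway genes tested, Hey1 was the only call, beside 0.775% of all named genes tested. Hes3, a repressor of the related Hes family, had 324.5 and 169.9 in castaneus and 67.4 and 54.7 in domesticus (adjusted p = 0.221). Qrich1, a transcription regulator, had 1689 and 2038 in castaneus and 320.2 and 336.7 in domesticus (5.65-fold, log2 2.50 ± 0.25, adjusted p = 0.0304), with means of 1783 in musculus and 1362 in ssp. Cdca7l, a nuclear protein that binds Myc, had 584 and 552.2 in castaneus and 132.9 and 91.3 in domesticus (5.16-fold, log2 2.37 ± 0.29, adjusted p = 0.0381), with means of 305 in musculus and 240 in ssp.

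Zfp62, a zinc finger protein, was among the genes with the lowest adjusted p, at 0.00563. It had 22.3 and 4 in castaneus, the second array at the floor, against 472.4 and 450.8 in domesticus, so the fold of at least 22.6 is a lower bound (log2 -4.50 ± 0.26, and -5.61 without the floor). The musculus mean of 256 and the ssp mean of 362 were nearer domesticus. It was the only one of 73 Zfp genes tested to be called, beside 0.775% of all named genes tested. Faap20, which serves the Fanconi anaemia DNA repair pathway, had both castaneus arrays at the floor by 102056_f_at. They read 7.2 and 7.4, against 211.1 and 329.5 in domesticus, so Faap20 was at least 14.1-fold lower in castaneus (log2 -3.82 ± 0.34, adjusted p = 0.0212). Means were 437 in musculus and 642 in ssp, and a second Faap20 probe set differed by -1.58 without being called. Rbbp4, a histone-binding subunit of chromatin complexes, was 5.11-fold lower in castaneus, and the zinc finger gene Zbed3 was 4.63-fold lower.

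Cdc25c, the phosphatase that lets cells enter division by activating the cyclin B kinase, was lower in castaneus by both of its probe sets. By 102934_s_at it had 127.2 and 112.5 in castaneus and 640.3 and 879.4 in domesticus (6.27-fold), and by 102935_at it had 108.4 and 114.9 in castaneus and 403.1 and 453.8 in domesticus (3.83-fold). The adjusted p was 0.0304 for 102934_s_at and 0.0419 for 102935_at. Cdc25c was the only gene with 2 or more called probe sets that all had the same direction. Of 19 tested genes of cell division in spermatocytes it was the only call, beside 0.775% of all named genes tested. In this list 5 were above 0 and 14 below, with a median of -0.12, which was -0.18 without castaneus replicate 1.

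Among enzymes and carriers of lipids and foreign compounds, calls ran in both directions. Ces1c, a secreted carboxylesterase, had 381.3 and 504.5 in castaneus, against 17.9 and 22.4 in domesticus, the first of these at the floor. With that array raised to the floor the difference was at least 21.4-fold (log2 4.42 ± 0.37, adjusted p = 0.0212), with means of 66.6 in musculus and 584 in ssp. Of 26 cytochrome P450 and carboxylesterase genes tested, Ces1c was the only call, beside 0.775% of all named genes tested. Of these 26, 18 were above 0 and 8 below, and the median was 0.35. Mgst3, a membrane glutathione transferase, was 3.87-fold higher in castaneus, the 1 call among 26 glutathione transferases and peroxidases, beside the same 0.775%. Gstm1, a cytosolic member, had 5867 and 6967 in castaneus and 16964 and 16093 in domesticus (log2 -1.37, adjusted p = 0.0864).

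Lower in castaneus was Abcc3, an export pump for organic anions, with 136.9 and 240.7 in castaneus against 2497 and 3556 in domesticus (16.4-fold, log2 -4.04 ± 0.46, adjusted p = 0.0318), and means of 974 in musculus and 512 in ssp. Apoc1, an apolipoprotein of plasma lipoproteins, had 76.4 and 70.3 in castaneus and 837.2 and 1350 in domesticus (14.5-fold, log2 -3.86 ± 0.52, adjusted p = 0.0433), with means of 742 in musculus and 133 in ssp. Pon2, an intracellular lactonase, had 33 and 63.2 in castaneus and 452.5 and 452 in domesticus (9.90-fold, log2 -3.31 ± 0.35, adjusted p = 0.0304), with means of 176 in musculus and 220.3 in ssp. In each of these 3 genes castaneus had the lowest of the 4 group means.

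Pla2g12a, a secreted phospholipase A2, had 564.9 and 939 in castaneus and 6351 and 8810 in domesticus by 104343_f_at (10.3-fold, log2 -3.36 ± 0.35, adjusted p = 0.0304). The musculus mean of 480.1 and the ssp mean of 639 were both nearer castaneus than domesticus, and the second probe set of the gene differed by -0.23. The phospholipid enzyme Agpat1 was 6.16-fold lower in castaneus, the fatty acid elongase Elovl5 3.27-fold lower, which was the smallest call, and the reductase Cyb5r4 5.47-fold lower. None of the 16 cholesterol synthesis genes was called by limma, and 1 had an unadjusted p under 0.05, beside 11.1% of all named genes tested. Of these 16, 12 were below 0, with a median of -0.22 that was -0.12 without domesticus replicate 1, and 7 had both castaneus arrays below both domesticus arrays while 0 had them above. Over all named genes tested, 22.1% had both castaneus arrays above both domesticus arrays and 21.0% had them below.

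The peptide precursors Agt and Cck were lower in castaneus. Agt, the precursor of angiotensin, showed the largest difference of all calls with the floor at 18.7. Without the floor, Zfp62 at -5.61, Cck at -5.24 and Faap20 at -5.17 lay beyond its -4.95. It had 89.7 and 61.5 in castaneus, against 2556 and 2064 in domesticus (30.9-fold, log2 -4.95 ± 0.50, adjusted p = 0.0304), and the musculus mean of 66.7 and the ssp mean of 50.1 were at the castaneus level. Of 8 renin-angiotensin genes tested it was the only call, beside 0.775% of all named genes tested. Ace, the angiotensin-converting enzyme with a testis form, had 655.6 and 850.4 in castaneus and 547.7 and 781.6 in domesticus. Cck, the precursor of the gut and brain peptide cholecystokinin, had both castaneus arrays at the floor, at 7.5 and 12.8, against 388.6 and 352.3 in domesticus. It was at least 19.8-fold lower in castaneus (log2 -4.31 ± 0.23, adjusted p = 0.00563), and the musculus mean of 18.7 was at the floor too, with an ssp mean of 32.7. Cck was the 1 call among 22 neuropeptide and peptide hormone genes, beside the same 0.775%. Pcsk1, a protease that matures such precursors, had 409.6 and 540.4 in castaneus and 109.1 and 70.3 in domesticus (log2 2.43, adjusted p = 0.0561).

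Syt11, a member of the synaptotagmin family of vesicle proteins, had 83.1 and 77.6 in castaneus and 597 and 510.7 in domesticus (6.88-fold, log2 -2.78 ± 0.39, adjusted p = 0.0477), with means of 1023 in musculus and 44.6 in ssp. Klk1b8, a member of the kallikrein family of secreted proteases, had 70.8 and 44.3 in castaneus and 452.8 and 435.7 in domesticus by 104497_f_at (7.93-fold, log2 -2.99 ± 0.36, adjusted p = 0.0381), with means of 105 in musculus and 58.1 in ssp. The kallikrein genes are near-identical copies, so that this name is uncertain. Among glutamate receptor subunits, Grin2b was 5.84-fold lower in castaneus and Grik2 at least 6.19-fold lower, with both castaneus arrays at the floor. A second Grik2 probe set differed by -1.30 and was not called. The secreted neurexin partner Nxph1 was 5.08-fold lower and Prep, a protease of short peptides, 6.30-fold lower.

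The serotonin receptor gene Htr5b ran the other way, with 235.5 and 255.5 in castaneus and 42.1 and 40.2 in domesticus (5.96-fold, log2 2.58 ± 0.27, adjusted p = 0.0304), and means of 145 in musculus and 186 in ssp. Cnga3, a cyclic nucleotide-gated channel of cone photoreceptors, was 4.09-fold higher in castaneus. Art1, an ectoenzyme that transfers ADP-ribose, had 16.7 and 21.6 in castaneus, the first at the floor, and 186.5 and 308.8 in domesticus (at least 11.9-fold lower, log2 -3.58 ± 0.49, adjusted p = 0.0449). Its means were 52.6 in musculus and 123 in ssp.

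Most of the remaining calls were in genes of protein turnover, membrane traffic and signalling. Zdhhc5, a palmitoyltransferase, had 1616 and 1228 in castaneus and 204.7 and 288.2 in domesticus by 96018_r_at (5.80-fold, log2 2.54 ± 0.28, adjusted p = 0.0314), with means of 366 in musculus and 793 in ssp. Rsu1, which binds partners at cell-matrix adhesions, had 1079 and 1108 in castaneus and 222.4 and 238.3 in domesticus (4.75-fold, log2 2.25 ± 0.25, adjusted p = 0.0314), with means of 336 in musculus and 221 in ssp. Tbc1d15, which acts on Rab GTPases, was 4.25-fold higher in castaneus, and its second probe set differed by 0.51.

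Lower in castaneus were Psma3, a subunit of the proteasome core, 5.02-fold by 92544_f_at, and Dnajb2, a co-chaperone, 4.52-fold. Psma3 was the only call among 44 proteasome genes, whose median was 0.08 (0.15 without domesticus replicate 2), and Dnajb2 the only one among 57 heat shock proteins and chaperones. Over all named genes tested, 0.775% were called. Otud7b, a deubiquitinase, was 5.64-fold lower by 96590_f_at, Klhdc2, a ubiquitin ligase receptor, 3.55-fold lower, and the GTPase Rab23 4.23-fold lower. Ywhaq, a 14-3-3 protein, was 3.92-fold lower by 97061_g_at, while its other tested probe set differed by 0.08. Rtl6, a gene derived from a retrotransposon, was 3.41-fold lower.

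One of the largest differences was in 1700097N02Rik on chromosome 17, for which no role is given here. It had 695.1 and 947.8 in castaneus, against 17518 and 25686 in domesticus (26.1-fold, log2 -4.71 ± 0.45, adjusted p = 0.0293), with means of 5973 in musculus and 3206 in ssp. The remaining 6 calls, all lower in castaneus, had no single symbol. The largest of these, 99036_s_at, had 123.3 and 73.7 in castaneus and 1797 and 1358 in domesticus (16.4-fold), and the next, 98346_at, differed 7.03-fold.

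Other probe sets of the called genes gave a second reading of the same transcripts. Of the 51 named genes, 14 had more than 1 tested probe set. Leaving out Ighm, whose calls ran both ways, 17 further probe sets were not called. They had the sign of the call in 12 cases and the opposite sign in 5, with a median of 0.54 in the direction of the call. Identifiers with a letter before _at, the maker's mark for probes shared with related transcripts or of weaker design, made up 25% of the calls and 20.4% of the probe sets tested. A base that differs between the mice and the sequence on the array also lowers a probe's signal. Its part in these disagreements, and in the calls of either direction, was not tested, as no probe sequences were at hand.

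**Figure D3:**
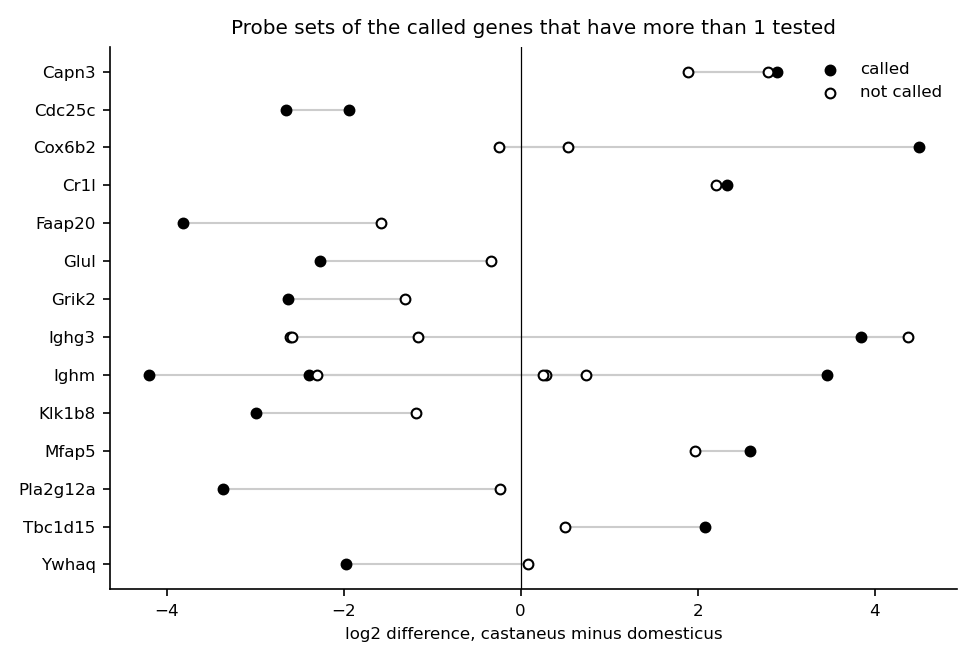
Log2 difference, castaneus minus domesticus, of each tested probe set of the 14 called genes that have more than 1, with called probe sets filled and the others open. Both Cdc25c probe sets were called on the same side, those of Ighm and Ighg3 lie on both sides of 0, and the Cox6b2 probe sets run from -0.24 to 4.50.

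The 2 other groups show where each called difference stood among the mice. The musculus mean was nearer castaneus in 26 of the 60 calls and the ssp mean in 33, or 43.3% and 55.0%, against 47.8% and 50.7% of all probe sets tested. Both groups were nearer castaneus in 18 calls and nearer domesticus in 19. Among the first were Agt, Cck, Psma3, Dnajb2 and Grin2b, where domesticus was the highest of the 4 means. Among the second were Hey1, Rsu1, Cnga3, Ighg3 and Ighm by 101870_at, where castaneus was the highest. Serpinb6a and Tbc1d15, both called higher in castaneus, were higher still in musculus, at means of 1877 and 2027.

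By chromosome, from the GRCm38.p6 gene table, called genes made up the largest share on chromosome 12, with 6 of 218 genes tested (2.75%). Chromosome 1 followed, with 7 of 364 (1.92%), and over all named genes tested the share was 0.775%. Whether calls concentrate on a chromosome was not tested. Those on chromosome 12 were Ighg3 and Ighm, whose probe set names are uncertain, and Cdca7l, Klhdc2, Ywhaq and Psma3. Those on chromosome 1 were Htr5b, Cr1l, Cnga3, Mgst3, Rab23, Dnajb2 and Glul. None of 397 genes on chromosome 5, 179 on the X or 4 on the Y was called by limma, and 46, 9 and 0 of them had an unadjusted p under 0.05 by any probe set, beside 13.0% of all named genes tested.

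Lists of testis cell types and of pathways held few calls, beside 0.775% of all named genes called. Among germ cell lists, none of the genes of early germ cells (11 tested), meiotic recombination (10), round spermatids (12), sperm chromatin (8), the acrosome (14) or the sperm tail (14) was called by limma, and 7 of the 65 genes in these lists had an unadjusted p under 0.05, near the 11.1% of all named genes tested. Medians in these lists ran from -0.09 to 0.22, and they moved with single arrays. The early germ cell median was 0.009 without domesticus replicate 2 and 0.41 without castaneus replicate 1, and the sperm chromatin median 0.33 without castaneus replicate 1. The median of the meiotic list was 0.13 without castaneus replicate 2, and that of the acrosome list -0.11 without castaneus replicate 1. The list of energy metabolism in germ cells holds germ cell forms such as Ldhc and also other genes, among them Glul. It had 2 calls of 19, Cox6b2 higher and Glul lower. By the brightest probe set of each gene, which for both of these was not called, 15 of the 19 were above 0. Kif9, a motor protein of the sperm tail, had 5805 and 7721 in castaneus and 2794 and 3154 in domesticus (log2 1.17, adjusted p = 0.205), and Brca2, a recombination protein, had 1934 and 2008 in castaneus and 813.5 and 910.3 in domesticus (log2 1.20, adjusted p = 0.188). The other way ran Ddx4, the germ cell RNA helicase, with 1753 and 1238 in castaneus and 4144 and 3270 in domesticus (log2 -1.32, adjusted p = 0.197). Mybl1, a transcription factor of meiosis, had 21.8 and 135.1 in castaneus against 240.2 and 172.1 in domesticus. Adam7, of a family of sperm surface proteins, stands in the acrosome list and also in the list of the epididymis and male tract. It had 25 and 15.2 in castaneus, the second at the floor, against 142.5 and 66 in domesticus. The groups did not overlap on any of these 5 genes, and none was called.

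Somatic cells of the testis gave no call by limma either, in 21 Sertoli cell, 19 Leydig cell and 14 peritubular genes, 8 of which had an unadjusted p under 0.05, beside the same 11.1%. In the Leydig cell list 8 of 19 genes had both castaneus arrays below both domesticus arrays, beside 21.0% of all named genes tested. The castaneus arrays lay above in 2, beside 22.1%, and the list's median was -0.05. Those below included Hsd3b6, an enzyme of androgen synthesis, at 80.8 and 35.5 in castaneus and 339.5 and 303.7 in domesticus (log2 -2.58, adjusted p = 0.0669). Another was Star, which brings cholesterol into mitochondria, at 174.9 and 206.3 in castaneus and 351.7 and 437.3 in domesticus (log2 -1.05, adjusted p = 0.165). The 2 with castaneus above were Hsd3b1 and Cyp17a1. The related gene Hsd3b1 had 792.6 and 679.6 in castaneus and 351.9 and 504.6 in domesticus (log2 0.80, adjusted p = 0.376). Cyp17a1, the enzyme that makes androgen precursors, differed by 0.33. Without domesticus replicate 2 the list's median was -0.42.

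None of the cytosolic ribosomal protein genes was called by limma, and 3 had an unadjusted p under 0.05, beside 11.1% of all named genes tested. Of 29 tested, 23 were above 0 and 6 below, with a median of 0.34. Both castaneus arrays lay above both domesticus arrays in 14 and below them in 3, beside 22.1% and 21.0% of all named genes tested. Rpl13a had 368.6 and 467.7 in castaneus and 205 and 191.9 in domesticus, while Rpl39l, a copy expressed in male germ cells, had 3999 and 3945 in castaneus and 7523 and 7986 in domesticus. Genes of the t complex, a region of chromosome 17 known for variants that distort transmission through sperm, also had no call. Of them 2 had an unadjusted p under 0.05, beside the same 11.1%. Of 15 tested, 4 were above 0 and 11 below, with a median of -0.20 that was -0.42 without castaneus replicate 2 and -0.37 without domesticus replicate 1. The sperm dynein gene Dnah8 had 1314 and 863.7 in castaneus and 2950 and 4462 in domesticus (log2 -1.77, adjusted p = 0.131). Red cell genes had a median of 0.47 over 9 genes, which ran from 0.060 to 1.25 on leaving out 1 castaneus or domesticus array, and their summed intensity, 7739 and 4400 in castaneus against 5118 and 3430 in domesticus, overlapped between the groups.

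**Figure D4:**
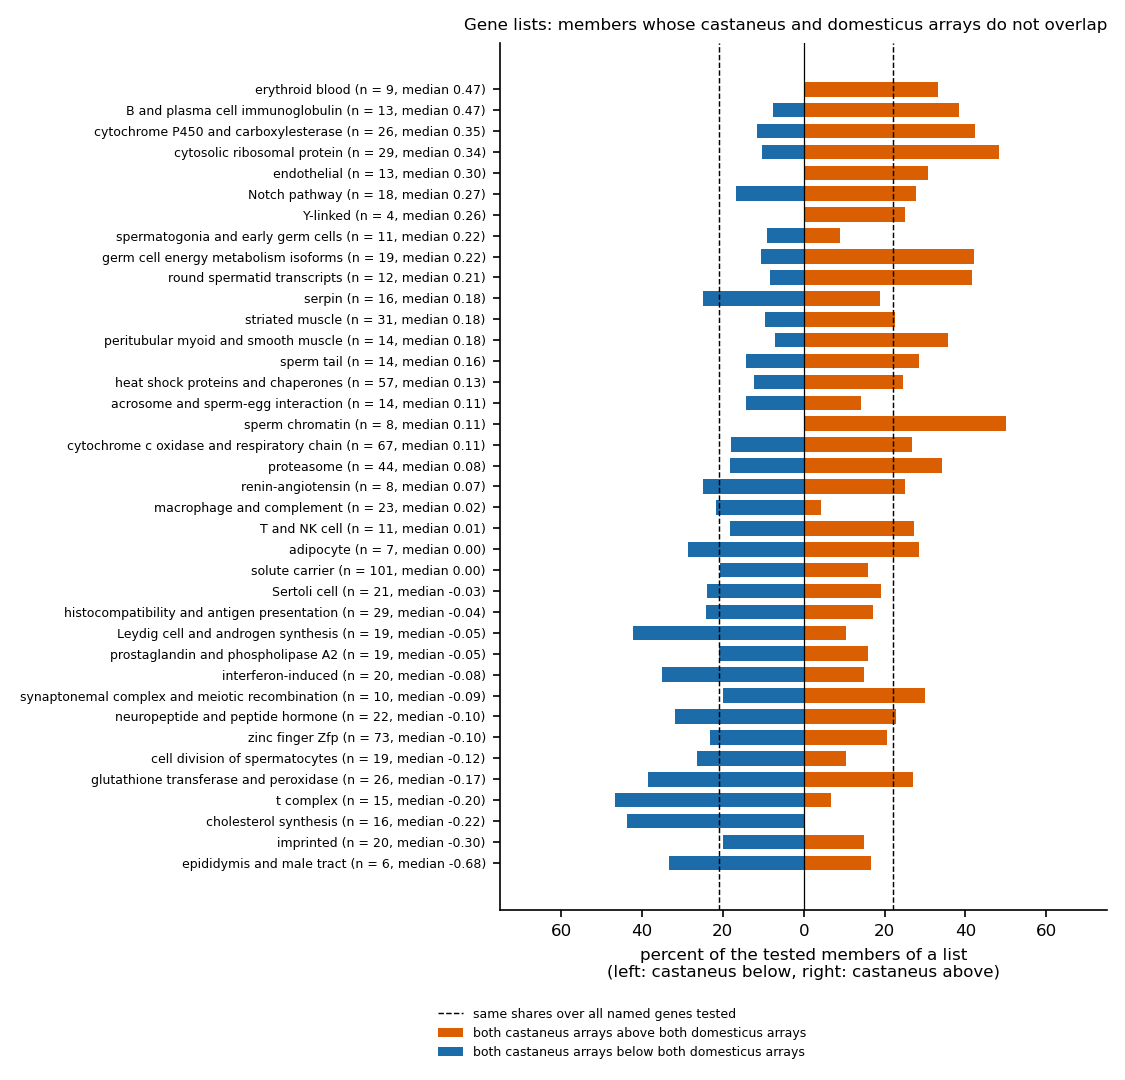
For each gene list, the percent of its tested genes with both castaneus arrays above both domesticus arrays (orange, right) or below them (blue, left), ordered by the list's median log2 difference, which is printed with the number of genes tested. Dashed lines mark the shares over all 6581 named genes tested, 22.1% above and 21.0% below, and short lists such as the Y-linked genes rest on few members.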

How the data were processed

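The labels describe total testis RNA on Affymetrix chips, for which the authors deposited 1 linear intensity per probe set and array. The mean intensity trimmed at both ends lay between 495.6 and 496.7 on all 8 arrays, so the deposited intensities had already been scaled. The sources used here do not say how probes were summarised or scaled, and precision is limited by the number of arrays. No further scaling was applied.

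Intensities below the 10th percentile of all values, 18.7, were set to that floor before log2 was taken. Probe sets at or above percentile 40 of their array on 2 or more of 8 arrays were fitted with limma 3.58.1 in R 4.3.3, with 1 mean per group and empirical Bayes moderation (4 residual and 2.34 prior degrees of freedom). The contrast was castaneus minus domesticus, with Benjamini-Hochberg adjustment over 8874 probe sets. The fit was tested on simulated data. Folds are ratios of geometric means, written "at least" where 1 or both arrays of the dimmer group were at the floor.

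Symbols came from the platform annotation, updated through Entrez numbers to a GRCm38.p6 RefSeq table: 10833 probe sets had 1 symbol, 396 several and 1193 none, and 10817 matched the table. All calls with 1 symbol are named, the 15 largest in each direction with array values, and of each list its calls or, with none, up to 2 members with the largest differences. Star, Hsd3b1 and the uncalled members named from lists that hold a call were chosen after their values were seen. The members and lists were chosen with earlier results of these data known. List patterns that had caught genes outside their family by name alone were corrected after values were seen.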

Additional observations from a re-analysis of the deposited data

How the results depend on the processing

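The number of calls changed with the filter, the variance model and the arrays in the fit. No named call changed direction where an alternative gave it a value (11 of 54 had none at percentile 60). That direction could not reverse on leaving out 1 array, as the groups of every call lay apart. Against 60 calls (19 higher in castaneus, 41 higher in domesticus), the counts were 4 (2 and 2) over all 12422 probe sets without a filter, 128 (54 and 74) over the 5882 that passed a filter at percentile 60, 88 (35 and 53) with a pseudocount of 32, 167 (65 and 102) with a trended and robust variance model, and 9 (4 and 5) when tested against 1.5-fold. Median centring gave 36 (15 and 21) and quantile normalization 48 (19 and 29), and removing the floor gave 60, of which 59 were shared. With limma on only the 4 arrays compared there were 0 calls and 994 probe sets at an unadjusted p under 0.05. Leaving out 1 array at a time gave 0 to 18 calls, 0 to 7 higher in castaneus and 0 to 11 higher in domesticus, and the cause was not tested. A lone array left in a group was assumed to vary like the others. Such an array adds nothing to the pooled spread, so leaving out either musculus array is 1 and the same test, as is leaving out either ssp array. In these the castaneus minus domesticus differences stayed as they were, and only the spread they were tested against changed.

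With the replicate number as a block (replicate block), 8 probe sets were called, 3 higher in castaneus (Ces1c, Tnnc1 and Hey1) and 5 higher in domesticus (Faap20, Cck, Zfp62, 1700097N02Rik and 1 without a name). The castaneus and domesticus differences between replicates 1 and 2 correlated at 0.149 over probe sets, within 0.0263 to 0.171 over all pairs of groups. The labels give the arrays only a shared number.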
